A study of Mus musculus with 8 samples.

Results

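Gadd45a, Gadd45b and Gadd45g encode the 3 mouse GADD45 proteins, small acidic nuclear proteins named for growth arrest and DNA damage. Every probe set that the array annotation pairs with 1 of these symbols alone was taken, which gave 5 probe sets of the 22690 on the array: 1 for Gadd45a, 3 for Gadd45b and 1 for Gadd45g. The genes were chosen by measured values of these same arrays, the serum response of their signal being larger in knockout than in wild-type cells. The difference between the serum responses and the 4 group contrasts that make it up are therefore given for them as a description, with no p-value. The average of both serum responses, and the genotype difference averaged over both serum states, are not part of that rule and were tested. Earlier results of these data were known when the genes were chosen, so these p-values are not shown to be free of the choice. Of the other 22626 probe sets left after the 64 control probe sets, 14947 passed the filter on low signal, all 5 of the Gadd45 probe sets among them.

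The cells were mouse embryonic fibroblasts from E11 embryos, wild type or Med23-/-, lacking the Mediator subunit MED23, which links certain DNA-bound activators to RNA polymerase II. Cells of both genotypes had been passaged through crisis, the phase after which cultured embryo cells grow without limit, so all 8 samples are cells selected in culture. All were held for 16 h in medium with 0.5% fetal bovine serum; one group of each genotype was then harvested, and the other was first given 20% serum for 30 min. Each of the 4 groups has 2 arrays, numbered 1 and 2 by the set in the labels, which do not say whether the 2 came from separate cultures or animals, or whether each genotype is 1 cell line. P-values then measure only the spread between these samples, which may be technical, and genotype cannot be told apart from other differences between the cell lines.

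GADD45 proteins have no known enzymatic activity and act by binding partners. They bind and activate the kinase MAP3K4, which feeds the p38 and JNK stress kinases, they bind PCNA, the cyclin-dependent kinase CDK1 and its inhibitor p21, and they have been tied to nucleotide excision repair and active DNA demethylation. Gadd45a is a classic target of p53 and is known to be held down by Myc, Gadd45b is a known NF-kappa B and TGF-beta target that can restrain the JNK kinase MKK7, and Gadd45g was first described as a cytokine-responsive gene.

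The stretch just before each start of transcription is shown to describe which short motifs each promoter carries. A link between these motifs and the serum responses was not tested. The 250 bases before the start, on the strand of the gene, are from RefSeq on GRCm38.p6; capitals mark matches on either strand to the octamer ATTTGCAT, the CCAAT box CCAAT, the E-box CACGTG and the TATA box TATAAA. The Gadd45a window is chr6:67037408-67037657 on the minus strand, the Gadd45b window chr10:80929841-80930090 on the plus strand and the Gadd45g window chr13:51846425-51846674 on the plus strand. All 3 windows lie outside the transcribed unit, directly upstream of it.
Gadd45a: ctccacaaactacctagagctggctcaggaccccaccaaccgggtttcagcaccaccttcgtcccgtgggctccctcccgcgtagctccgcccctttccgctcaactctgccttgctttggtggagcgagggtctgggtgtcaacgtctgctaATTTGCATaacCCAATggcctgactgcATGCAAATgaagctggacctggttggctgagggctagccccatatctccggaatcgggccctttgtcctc
Gadd45b: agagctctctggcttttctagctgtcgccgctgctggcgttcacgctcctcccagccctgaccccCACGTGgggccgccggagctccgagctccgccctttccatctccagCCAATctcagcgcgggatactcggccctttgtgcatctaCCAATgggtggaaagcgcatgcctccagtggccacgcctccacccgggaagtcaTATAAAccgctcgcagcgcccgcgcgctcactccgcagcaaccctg
Gadd45g: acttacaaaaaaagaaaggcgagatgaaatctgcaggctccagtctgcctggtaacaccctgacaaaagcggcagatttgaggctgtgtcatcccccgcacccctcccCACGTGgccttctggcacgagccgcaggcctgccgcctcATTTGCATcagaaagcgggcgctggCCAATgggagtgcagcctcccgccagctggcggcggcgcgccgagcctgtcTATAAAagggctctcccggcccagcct

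In Gadd45a, 2 octamers in opposite orientation, at -97 to -90 and at -70 to -63, flank a CCAAT box at -86 to -82. Among 32851 windows of the same length, 1.6% held an octamer and 0.0974% held 2 or more. Gadd45g held 1 octamer, at -103 to -96, beside an E-box at -142 to -137, a CCAAT box at -78 to -74 and a TATA box at -27 to -22. Gadd45b held no octamer, and had an E-box at -185 to -180, CCAAT boxes at -139 to -135 and -100 to -96, and a TATA box at -46 to -41. A CCAAT box was found in 33.8% of all windows, an E-box in 6.02% and a TATA box in 12.4%. The amino acid response element TGATGNAAN matched once, in Gadd45g at -102 to -94, over the octamer, and in 3.44% of all windows. The p53 decamer matched once, in Gadd45a at -40 to -31, and in 7.13% of all windows. The EGR site in its forms GCGGGGGCG (2.57% of windows) and GCGTGGGCG (0.536%), the AP-1 site TGANTCA (6.75%), the CRE TGACGTCA (1.55%) and its core TGACG (17.8%), the forkhead site TGTTTAC (3.17%), the SMAD box GTCTAGAC (0.167%), the CArG box (1.47%) and the kappa B site (7.25%) had no match in these 3 windows. A match describes letters in this window and is not evidence of binding. GC content was 59.2% in the Gadd45a window, 65.2% in that of Gadd45b and 62% in that of Gadd45g, against a median of 52.4% over all windows.

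**Figure D1:**
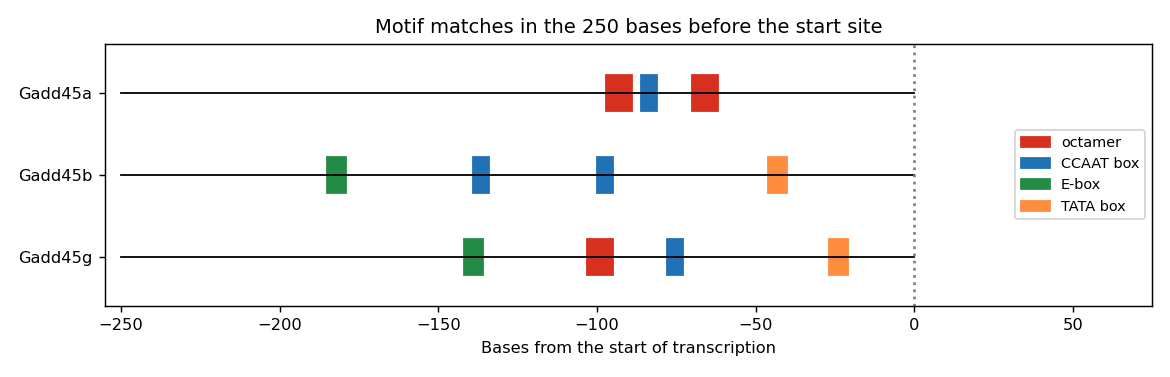
Matches to 4 motifs in the 250 bases before the start of transcription of each gene; the x axis is bases from the start, the dotted line is the start, and each coloured box spans 1 match. Gadd45a has the pair of octamers around a CCAAT box, Gadd45b and Gadd45g have an E-box and a TATA box, and Gadd45g has 1 octamer.

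The labels were checked first. Med23 gave signals of 4901, 5411, 3595 and 3577 on the wild-type arrays and between 28 and 133 on the knockout arrays, an average difference, knockout minus wild type, of -6.06 ± 0.318 (SE) on the log2 scale; the probe set reached the filter on wild-type arrays alone, so no p is given. Egr1, the zinc finger factor that serum switches on at once, was higher after serum by 3.60 ± 0.110, averaged over genotypes (limma, adjusted p = 1.32e-08). Replicate arrays correlated at 0.976 to 0.984 and arrays of different genotype at 0.750 to 0.805 over all tested probe sets. Of 11 fibroblast markers with a probe set annotated to them alone, 8 were at or above each array's 40th percentile on all 8 arrays. The summed signal of all 11, Pdgfra included, was 154234 to 174985 in starved and 156163 to 170522 in stimulated wild-type cells. In knockout cells it was 311278 to 370749 when starved and 280315 to 297055 after serum. Pdgfra, the receptor that marks many fibroblasts, lay between 13.3 and 129 on wild-type arrays and between 6040 and 15782 on knockout arrays, and Thy1 was between 132 and 242 on all 8. Col1a2 differed between the wild-type sets, at 581 and 743 in set 1 and 8871 and 9443 in set 2, and was 62376 to 91077 on knockout arrays. Dcn was lower in knockout, at 4807 to 8105 on wild-type and 2365 to 3500 on knockout arrays. Summed neural marker signal was 5031 to 8321 in wild-type and 3216 to 3712 in knockout cells, most of it from Nes in the wild type. Nes, Sox2 and Tubb3 were lower on knockout arrays. Map2 (343 to 359 on wild-type and 1597 to 2025 on knockout arrays) and Sox10 were higher. The count of neural markers above the filter on all arrays was 0 of 7. The same count was 0 of 9 for epithelial, 0 of 7 for endothelial, 0 of 6 for muscle and 1 of 8 for macrophage and blood markers (Csf1r, 656 to 1082); no marker was at 0. Several of these levels differed between the genotypes, and their part in the results below was not tested.

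Gadd45a, the p53-responsive member, was the one whose signal differed over 2-fold with serum, with no overlap of arrays, in opposite directions in the 2 genotypes. Its only probe set, 1449519_at, read 2576 and 4091 on the starved wild-type arrays and 1393 and 1747 on the stimulated ones. On knockout arrays it read 35.5 and 21.9 when starved and 347 and 251 after serum. The 4 groups did not overlap, and their order was starved wild type, stimulated wild type, stimulated knockout and starved knockout. In bulk RNA, fewer cells with the transcript and less of it per cell cannot be told apart. Group means were 3333, 1570, 299 and 28.7 in that order. Serum went with a 2.12-fold lower mean in wild-type cells. The knockout signals are not shown to be above background, so no fold of means is given against them.

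On the log2 scale, with 16 added to each signal, the Gadd45a serum response was -1.05 ± 0.309 in wild-type and 2.82 ± 0.309 in knockout cells, and the difference between them, which served to pick the gene, was 3.86 ± 0.437 (SE). The gap between genotypes was -6.21 ± 0.309 when starved and -2.34 ± 0.309 after serum. Within set 1 the wild-type response was -0.88 and the knockout response 2.82; within set 2 they were -1.22 and 2.81. The knockout signals were low: they lay at the 9.77 and 4.75 percentiles of their arrays when starved and at 37.3 and 29.6 after serum, against 58.4 to 79.2 on wild-type arrays. Gadd45a thus passed the filter, set at each array's 40th percentile, through its 4 wild-type arrays alone, and differences against starved knockout cells depend on the constant added: the starved gap was -6.81 with 1 and -5.16 with 64. No call of presence or absence was used.

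Averaged over both serum states, the genotype difference of Gadd45a was -4.27 ± 0.218 on the log2 scale; having passed the filter through wild-type arrays it had to differ, so no p is given. Its average serum response was 0.88 ± 0.218 (limma, adjusted p = 0.0174), the mean of a lower and a higher value rather than a change seen in both genotypes. That call was lost with a constant of 64 (0.47, adjusted p = 0.1), without wild-type starved array 1 (0.72, adjusted p = 0.0859), without wild-type serum array 2 (0.80, adjusted p = 0.0705) and without knockout serum array 1 (0.77, adjusted p = 0.0652).

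**Figure D2:**
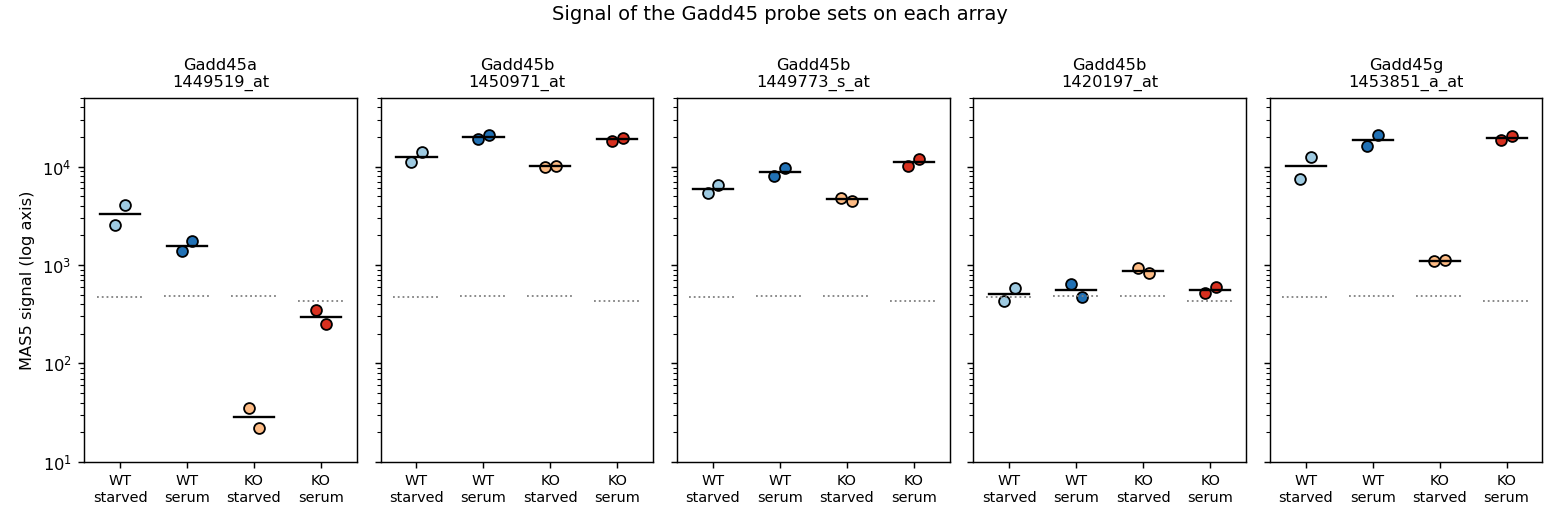
Deposited signal of each Gadd45 probe set on every array, on a log axis; points are arrays, the 4 groups are side by side, and the dotted line is the group mean of the arrays' 40th percentile. Gadd45a lies above the dotted line in wild-type cells and below it in knockout cells, at 35.5 and 21.9 when starved, while Gadd45g drops to 1091 and 1128 in starved knockout cells alone.

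Gadd45g, the cytokine-responsive member, was apart between the genotypes in starved cells only. Probe set 1453851_a_at read 7527 and 12659 on starved wild-type arrays, 16135 and 21081 on stimulated wild-type arrays, 1091 and 1128 on starved knockout arrays, and 18579 and 20579 on stimulated knockout arrays. After serum the genotypes overlapped, with means of 18608 in wild-type and 19579 in knockout cells, and all other pairs of groups were apart. The starved knockout mean, 1109, was 9.10-fold below the starved wild-type mean of 10093. Serum went with a 1.84-fold higher mean in wild-type and a 17.7-fold higher mean in knockout cells.

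On the log2 scale the Gadd45g serum response was 0.92 ± 0.215 in wild-type and 4.12 ± 0.215 in knockout cells, and the difference that served to pick it was 3.20 ± 0.304. Within set 1 the responses were 1.10 and 4.07 and within set 2 they were 0.73 and 4.17. Without starved wild-type array 1 the wild-type response was 0.54. The genotype gap was -3.12 ± 0.215 when starved and 0.08 ± 0.215 after serum; within sets the latter was 0.20 and -0.03. The average serum response rose by 2.52 ± 0.152 (limma, adjusted p = 2.6e-06). The average genotype difference was -1.52 ± 0.152 (limma, adjusted p = 1.36e-05) and combines a large gap in starved cells with overlapping values after serum.

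Gadd45b, the member known as an NF-kappa B target, was higher after serum in both genotypes by its 2 bright probe sets. Probe set 1450971_at read 11214 and 13964 on starved and 19327 and 20949 on stimulated wild-type arrays, and 9860 and 10234 on starved and 18198 and 19673 on stimulated knockout arrays. Serum-treated arrays were all above starved ones, the stimulated genotypes overlapped, and starved knockout arrays lay below starved wild-type ones. Probe set 1449773_s_at read 5457 and 6477, then 8097 and 9721 in wild-type cells, and 4787 and 4495, then 10233 and 11957 in knockout cells. Here the genotypes were apart in both states, knockout below wild type when starved and above it after serum.

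The serum response of 1450971_at was 0.68 ± 0.121 in wild-type and 0.91 ± 0.121 in knockout cells, a difference of 0.23 ± 0.171, while that of 1449773_s_at was 0.58 ± 0.139 and 1.25 ± 0.139, a difference of 0.67 ± 0.197. Averaged over genotypes, Gadd45b rose by 0.80 ± 0.0854 on 1450971_at (limma, adjusted p = 0.000145) and by 0.91 ± 0.0985 on 1449773_s_at (limma, adjusted p = 0.000153). Its average genotype difference was -0.20 on 1450971_at, with a 95% confidence interval of -0.39 to -0.01 and an adjusted p of 0.063 in limma. That value crossed the threshold with quantile normalization (-0.28, adjusted p = 0.0136) and without wild-type starved array 1 (-0.28, adjusted p = 0.0137). On 1449773_s_at the difference was -0.02, with an interval of -0.24 to 0.20 and an adjusted p of 0.874 in limma.

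The third Gadd45b probe set, 1420197_at, did not follow the other two. It was dim, at the 38.5 to 51.2 percentiles of its arrays and above the filter on 7 of 8. It read 434 and 588 on starved and 647 and 477 on stimulated wild-type arrays, which overlapped, and 924 and 827 on starved and 525 and 601 on stimulated knockout arrays, which did not. Its average serum response was -0.24, with an interval of -0.63 to 0.14 (limma, adjusted p = 0.346), and its average genotype difference was 0.39 ± 0.175 (limma, adjusted p = 0.0753). The latter passed the threshold with quantile normalization (0.47, adjusted p = 0.0369), with median centring (0.50, adjusted p = 0.0321), with no trend in the variance (0.39, adjusted p = 0.0479) and without wild-type serum array 1 (0.50, adjusted p = 0.0497).

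**Figure D3:**
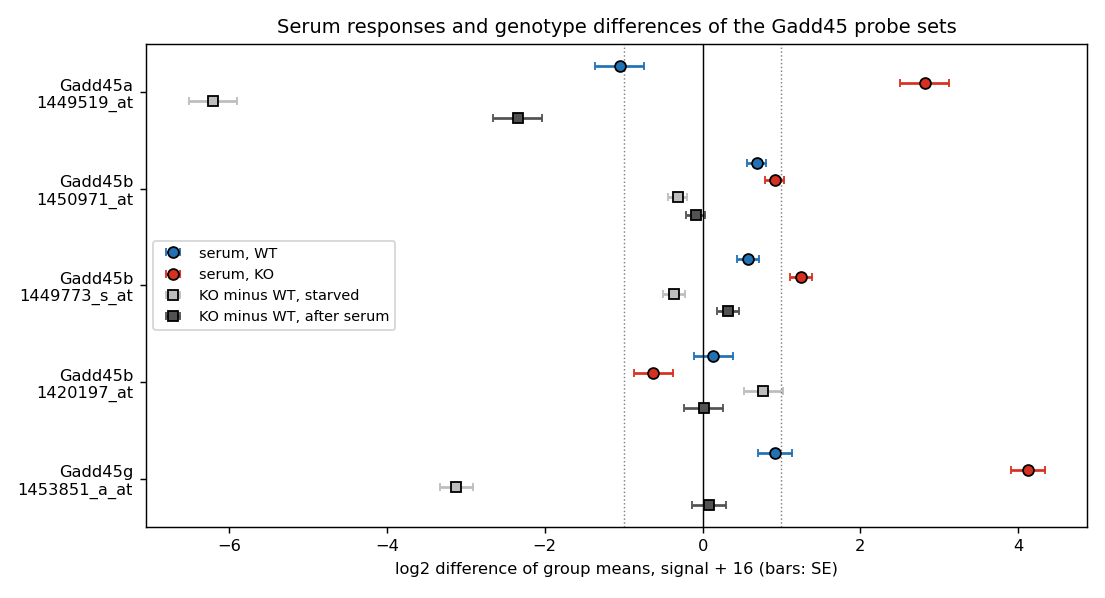
Log2 differences of group means for the 5 Gadd45 probe sets, in signal plus 16, with SE bars; circles are serum responses in wild-type (WT, blue) and knockout (KO, red) cells, squares are knockout minus wild type, light when starved and dark after serum, and dotted lines mark 2-fold. Gadd45a goes from -1.05 in wild-type to 2.82 in knockout cells, Gadd45g from 0.92 to 4.12, and the Gadd45b probe sets differ less.

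Counted over the family, the average serum response passed the test upward for 4 of 5 probe sets and downward for 0 of 5, against 8.51% and 13.4% of all tested probe sets. The 4 are Gadd45g, 2 probe sets of Gadd45b, and Gadd45a, which was lower after serum in wild-type cells (-1.05). With each array centred on its median, the split over all probe sets turned from 1272 higher and 1999 lower to 1725 higher and 1043 lower. The average genotype difference passed downward for 2 of 5 and upward for 0 of 5, against 32% and 27.7% of all tested probe sets, so a call in that comparison is common. The median over all tested probe sets was -0.09 for the average serum response and -0.04 for the average genotype difference. The genotype calls are those of Gadd45a and Gadd45g. Because the former had to differ between genotypes, these counts describe the probe sets without supporting a statement on the family.

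With a change of over 2-fold and no overlap of arrays, 0 of 5 probe sets were higher after serum in wild-type cells, against 1.77% of all tested, and 1 of 5 was lower, Gadd45a, against 1.26%. In knockout cells 3 of 5 were higher after serum, Gadd45a, Gadd45g and 1449773_s_at of Gadd45b, against 3.75%. Knockout was below wild type for 2 of 5 when starved (Gadd45a and Gadd45g), against 10.5%, and for 1 of 5 after serum (Gadd45a), against 12%. Only 4 of 14947 tested probe sets (0.0268%) were over 2-fold lower with serum in wild-type and over 2-fold higher in knockout cells with no overlap: those of Gadd45a, Faap20 and Ccdc25 and 1 with no single gene name. The last 3 were found after their values were seen. The choice of the Gadd45 genes used these contrasts, so nothing is read from the counts.

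**Figure D4:**
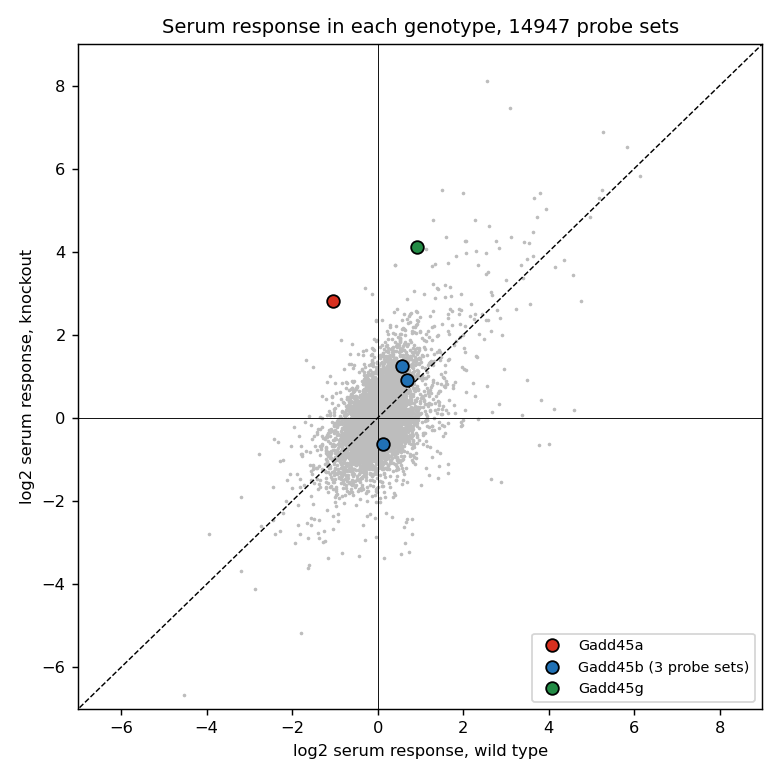
Log2 serum response in wild-type (x axis) against knockout cells (y axis) for 14947 tested probe sets in grey, with the Gadd45 probe sets coloured; the dashed line marks equal responses. Gadd45a lies in the upper left quadrant at -1.05 and 2.82, Gadd45g above the line at 0.92 and 4.12, and the bright Gadd45b probe sets nearer the line.

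Among the members, log2 signals over the 8 arrays correlated at 0.947 between the 2 bright Gadd45b probe sets. Gadd45g correlated with them at 0.897 and 0.876 and with Gadd45a at 0.737, while Gadd45a and Gadd45b gave 0.449 and 0.332. The dim Gadd45b probe set correlated negatively with all the others, from -0.795 to -0.507. These values have no test and rest on 8 arrays in 4 groups. On starved wild-type cells, array 2 was above array 1 for 5 of 5 probe sets, by 0.25 to 0.75 on the log2 scale, where the median of all tested probe sets was -0.02. The same held for 4 of 5 on stimulated wild-type, 2 of 5 on starved knockout and 4 of 5 on stimulated knockout arrays.

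The genes whose profile was most like each member, by Pearson correlation over the same 8 arrays and 1 probe set for each of 8450 other genes, differed between members. For Gadd45a they were Cdc42ep1 (0.988), Anp32e (0.987), Hmgb3 (0.987), Pbdc1 (0.985) and Memo1 (0.984). For Gadd45b they were Nfkbia (0.989), Rrad (0.987), Rel (0.985), Slc25a25 (0.984) and Junb (0.983). For Gadd45g they were Acsl4 (0.992), Mknk2 (0.990), Ist1 (0.989), Chek1 (0.985) and Cnn1 (0.984). The lists do not share a gene, and a correlation over 4 groups of 2 reflects shape and not size of change.

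Genes tied to GADD45 proteins in other work were then examined in 6 lists, with 84 genes and 1 probe set a gene. Of these, 75 had a probe set annotated with that gene alone and 66 were tested. Trp53, which encodes p53, Nfkb1 and Pou2f1 had no such probe set and were not examined. For these genes the difference between the serum responses was tested as well; 1.61% of all tested probe sets were called higher and 1.08% lower in it, with a median of -0.06. The counts below stand beside the shares of all tested probe sets already given: 8.51% higher and 13.4% lower with serum, and 27.7% higher and 32% lower in knockout. The lists got no test of their own, and a share near these is no result about a list. In simulated data, the fit recovered 47.4% of log2 changes of 1 in the difference between responses. The lack of a call there does not show equal responses. Counts at an unadjusted p under 0.05 have no such share beside them, since it was not taken, and nothing is read from them. Map3k5, Map2k6, Tet1, Trp63, Trib3 and Gas2 reached the filter on arrays of 1 genotype alone and so had to differ between genotypes; the counts hold them, and their genotype differences are given without a p. Aurka and Brca1 reached it on 4 wild-type arrays and 1 knockout array, so they passed through the wild-type arrays. Their genotype differences are likewise given without a p, and the counts hold them.

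Of 15 tested genes of the p38 and JNK module, 8 were called lower and 1 higher in knockout, against 32% and 27.7% of all tested probe sets, with a median of -0.36. Mapk12, the p38 gamma kinase, fell by 1.55 ± 0.139 (limma, adjusted p = 6.23e-06). Map3k5, the kinase ASK1, gave -2.36 ± 0.236 and Map2k6, an activator of p38, 1.74 ± 0.190. Map3k4, the direct GADD45 partner, lies outside the rule for named genes and was looked up for that role: it read between 2603 and 3665 on wild-type and between 1830 and 1976 on knockout arrays and fell by 0.69 ± 0.117 (limma, adjusted p = 0.000525). With serum 4 of the 15 rose and 1 fell, with a median of -0.02; Map2k3, the other p38 activator, rose by 1.34 ± 0.173 (limma, adjusted p = 0.000504) and Mapkapk2, a substrate kinase of p38, by 0.90 ± 0.140 (limma, adjusted p = 0.00163). The serum count of 5 fell to 3 without wild-type starved array 1 or 2, wild-type serum array 1 or 2 or knockout starved array 1, and to 2 without knockout serum array 2. The difference between responses was called by limma for 0 of 15, of which 2 had an unadjusted p under 0.05; 1 was called without knockout starved array 1 or 2. The probe set used for Mapk8, the JNK1 kinase, gave 0.17, while its probe sets 1420931_at and 1437045_at gave 1.55 (limma, adjusted p = 0.0492) and 1.52 (limma, adjusted p = 0.0258).

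Of 7 tested cell cycle partners, 3 fell in knockout and 0 rose, against 32% and 27.7% of all tested probe sets, with a median of -0.40 and 3 at an unadjusted p under 0.05 in limma. Aurka, the mitotic kinase that GADD45A can inhibit, gave -2.10 ± 0.202. Cdk1 fell by 1.40 ± 0.104 (limma, adjusted p = 1.61e-06) and Pcna, the replication clamp, fell by 0.66 ± 0.0926 (limma, adjusted p = 0.000148). With serum 2 rose and 1 fell, with a median of -0.01: Cdkn1a, which encodes p21, rose by 1.66 ± 0.332 (limma, adjusted p = 0.00612), Pcna by 0.44 ± 0.0926 (limma, adjusted p = 0.00754), and Cdk1 fell by 0.42 ± 0.104 (limma, adjusted p = 0.0175). Cdkn1a read 5562 and 4077, then 10173 and 6637 in wild-type, and 3995 and 1055, then 12409 and 11639 in knockout cells, so its starved knockout arrays were far apart. Limma called the difference between responses for 0 of 7, with 3 at an unadjusted p under 0.05; 1 was called without knockout starved array 1 or knockout serum array 2.

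Among 11 tested repair and demethylation partners, 5 fell with serum and 0 rose, against 13.4% and 8.51% of all tested probe sets, with a median of -0.21 and 5 at an unadjusted p under 0.05 in limma. Mbd4, a glycosylase of deaminated methylcytosine, fell by 1.79 ± 0.153 (limma, adjusted p = 3.31e-05) and Ercc5, the repair nuclease XPG, fell by 0.64 ± 0.126 (limma, adjusted p = 0.00574). With median centring the 5 became 3. In knockout 5 were called higher and 3 lower, against 27.7% and 32%, with a median of 0.12: Tet1, a methylcytosine oxidase, gave 0.94 ± 0.180 and Dnmt1, the maintenance methyltransferase, fell by 0.92 ± 0.0874 (limma, adjusted p = 9.74e-06). Of 4 other tested binding partners, 3 rose in knockout and 0 fell, among them Npm1, the nucleolar protein nucleophosmin, by 0.66 ± 0.0819 (limma, adjusted p = 6.07e-05); with serum limma called 0 of 4, with 0 at an unadjusted p under 0.05. For the difference between responses limma called 0 of 11 and 0 of 4, with 4 and 0 at an unadjusted p under 0.05.

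The transcription factors known to act on Gadd45 genes moved both ways. With serum 7 of 16 tested rose and 3 fell, against 8.51% and 13.4% of all tested probe sets, with a median of 0.07; beside Egr1 these were led by Cebpb, a basic leucine zipper factor (1.51 ± 0.0971, limma, adjusted p = 4.22e-06), Myc (1.16 ± 0.0807, limma, adjusted p = 7.31e-06) and Rela, the NF-kappa B subunit p65 (0.56 ± 0.0673, limma, adjusted p = 0.00031). In knockout 5 were called higher and 7 lower, against 27.7% and 32%, with a median of -0.10. Cebpa rose by 2.33 ± 0.172 (limma, adjusted p = 1.53e-06). Brca1, which can act on the Gadd45a promoter through its octamer and CCAAT box, gave -2.04 ± 0.208. Its probe sets 1451417_at and 1427698_at gave -1.39 and -0.44, the latter not called. A link between Brca1 and the Gadd45a signal was not tested. The serum response was more positive in knockout for 5 of 16 and more negative for 1, with a median difference of 0.23. More positive were Egr1 (2.01 ± 0.221, limma, adjusted p = 0.00201), Cebpb (1.36 ± 0.194, adjusted p = 0.00572), Myc (1.15 ± 0.161, adjusted p = 0.00569), Atf4, the effector of the integrated stress response (0.92 ± 0.141, adjusted p = 0.00925), and Foxo3 (1.31 ± 0.275, adjusted p = 0.0379), a forkhead factor whose response was -1.30 in wild-type and 0.01 in knockout cells. More negative was Smad3, a TGF-beta effector (-1.11 ± 0.189, limma, adjusted p = 0.016), at 0.04 in wild-type and -1.07 in knockout cells. Foxo3 and Smad3 lie outside the rule for named genes and were named after their values were seen; other probe sets of Foxo3 (0.45 and 0.86) and of Smad3 (-0.38) were not called. The count of 6 fell to 3 without wild-type serum array 2, knockout serum array 1 or knockout serum array 2.

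Egr1 shared with Gadd45g a starved knockout level below the wild type and a like level after serum. It read 6993 and 7545, then 44251 and 44095 in wild-type cells, and 1336 and 1965, then 40512 and 39301 in knockout cells. Starved genotypes were apart, and after serum the knockout arrays lay slightly below the wild-type arrays, by a difference of -0.15 on the log2 scale. Myc read 6096 and 6644, then 10103 and 9077 in wild-type, and 5066 and 5646, then 18407 and 17264 in knockout cells, with the gap after serum.

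Of 13 other growth arrest and DNA damage genes, 5 were called lower and 4 higher in knockout, against 32% and 27.7% of all tested probe sets, with a median of 0.01. Trib3, a pseudokinase induced by ATF4 and CHOP, gave -3.46 ± 0.147. Chac1, a glutathione-degrading enzyme of the same response, fell by 3.26 ± 0.117 (limma, adjusted p = 1.14e-08), and Ddit4, the mTORC1 inhibitor REDD1, fell by 3.05 ± 0.143 (limma, adjusted p = 6.3e-08). Gas1, a growth arrest gene of the cell surface, rose by 1.77 ± 0.0675 (limma, adjusted p = 1.56e-08).

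With serum 5 of the 13 rose and 3 fell, against 8.51% and 13.4% of all tested probe sets, with a median of 0.09. Btg2, an antiproliferative gene, rose by 4.06 ± 0.112 (limma, adjusted p = 7.43e-09), Ppp1r15a, which encodes GADD34, by 1.54 ± 0.104 (limma, adjusted p = 6.2e-06) and Ppp1r15b by 1.20 ± 0.0956 (limma, adjusted p = 1.98e-05). The response was called more positive in knockout for 3 of 13 and more negative for 0, with a median difference of 0.79. In limma 12 had an unadjusted p under 0.05, in both directions, the negative ones being Gas6, Ddit4 and Chac1. The share of all tested probe sets at that level was not taken, so nothing is read from this count. Ppp1r15a gave 1.70 ± 0.209 (limma, adjusted p = 0.00336), Btg1 1.12 ± 0.160 (limma, adjusted p = 0.00574) and Gas1 0.91 ± 0.135 (limma, adjusted p = 0.00733). For Gas1 the response was -0.11 in knockout and -1.03 in wild-type cells, and its second probe set gave 0.15 with no call. Btg2 was not called on the probe set used (0.84, limma, adjusted p = 0.0798) but was on its probe set 1416250_at (1.5, limma, adjusted p = 0.00572). Over the 6 lists, limma called 6 of the 54 probe sets not used for this difference, 3 of them of a gene not called, Mapk8 or Btg2. Ppp1r15a read 3465 and 3670, then 6052 and 5461 in wild-type, and 2298 and 1720, then 10661 and 10269 in knockout cells.

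**Figure D5:**
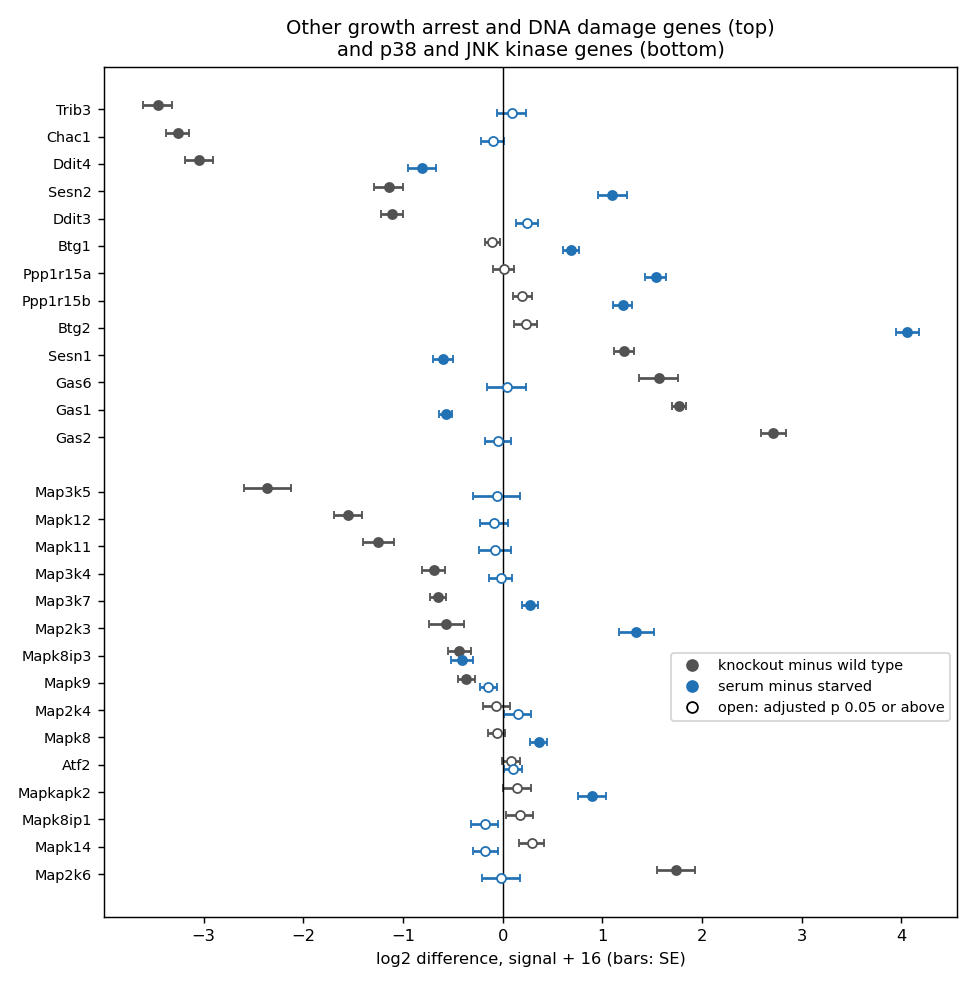
Log2 difference with SE bars for each tested gene of the other growth arrest and DNA damage list (top) and the p38 and JNK list (bottom); grey points are knockout minus wild type and blue points serum minus starved, each averaged over the other factor, and open points have an adjusted p of 0.05 or above. Trib3 at -3.46 and Chac1 at -3.26 have the lowest genotype differences, and Btg2 at 4.06 is the highest serum response.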

How the data were processed

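Total RNA from 8 mouse embryonic fibroblast samples was labelled with biotin and run on 1 array each. The deposited values are an intensity per probe set, made by the authors with MAS5 per the submitters' processing notes; the authors' scaling left each array with a mean of 2500.6 to 2500.8 after trimming 2% at each end. MAS5 corrects for mismatch signal, so low values are noisy. Arrays carry no read depth, and their number limits the precision. Probe sets were named through the platform annotation (20380 with 1 gene, 691 with several, 1555 with none; 0 symbols were updated), and none was named from a probe set with several genes.

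Control probe sets were left out. The test took each probe set whose signal reached the 40th percentile of the array on 2 or more arrays (14947, 66.1%, 8453 genes). Log2 of signal plus 16 was fitted with limma 3.58.1 in R 4.3.3: group means over all 8 arrays, eBayes with trend (4 residual and 6.07 prior degrees of freedom), two-sided, with Benjamini-Hochberg adjustment over all tested probe sets and a call under 0.05. With 2 arrays against 2, an exact test of 1 gene cannot give a p under 0.333. Of several probe sets of a listed gene, the one of highest mean log2 signal was used. Named were all member probe sets, Med23 and Egr1, up to 4 genes with the smallest p per list and comparison, and the 5 most alike genes per member; Map3k4, Foxo3, Smad3 and the genes named for their filter (Trp63, Gas2) or opposite responses were added after their values were seen. The members and lists were chosen with earlier results of these data known. The fit was tested on simulated data. Of log2 changes of 1, it recovered 92.4% for the average serum response and 91.8% for the average genotype difference. For the difference between serum responses it recovered 47.4% of log2 changes of 1 and 90.8% of changes of 2. False calls were 6.05%, 5.44% and 7.25% in that order, each above the threshold of 0.05.

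Alternatives were constants of 1 and 64, quantile normalization, median centring, no filter, a 60th percentile filter, no trend, each other probe set of a member, the set number as a block, and each array left out. Set numbers were checked for pairing: deviations of same-numbered arrays correlated at 0.214 within wild type, 0.097 within knockout and -0.034 to 0.0056 across genotypes, so the main fit had no block. Promoters were matched by symbol (3 of 3) to RefSeq on GRCm38.p6.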

Additional observations from a re-analysis of the deposited data

Results flagged for a closer look

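Gadd45a was singled out because both wild-type arrays were lower after serum and both knockout arrays higher, at -1.05 and 2.82 on the log2 scale; the difference was not tested, since it served to pick the gene. Among the 66 tested genes tied to GADD45 proteins, the difference between the serum responses, knockout minus wild type, passed limma's test for 9. It was 2.01 for Egr1 (adjusted p = 0.00201), 1.70 for Ppp1r15a (adjusted p = 0.00336), 1.36 for Cebpb (adjusted p = 0.00572), 1.31 for Foxo3 (adjusted p = 0.0379), 1.15 for Myc (adjusted p = 0.00569), 1.12 for Btg1 (adjusted p = 0.00574), 0.92 for Atf4 (adjusted p = 0.00925), 0.91 for Gas1 (adjusted p = 0.00733) and -1.11 for Smad3 (adjusted p = 0.016). Of all tested probe sets, 1.61% were called higher and 1.08% lower in this difference. The lists were chosen with earlier results of these data known. Other probe sets of Foxo3, Smad3 and Gas1 were not called, while those of Atf4, Btg1 and Cebpb were. No group holds enough arrays for a check of single outlying samples.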

How the results depend on the processing

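The number of probe sets called was 3271 for the average serum response, 8918 for the average genotype difference and 402 for the difference between serum responses. The last came to 250 with no filter, 214 with no trend and 127 to 501 with 1 array left out, moving by over 1.5 times without any single array other than the starved knockout ones; the second came to 8002 to 8735, and the first to 2133 to 3063, lowest without knockout serum array 1. Median centring turned 1272 higher and 1999 lower calls into 1725 and 1043 for the first, and 241 higher and 161 lower into 353 and 108 for the last, and the median knockout serum response from -0.13 to 0.03.

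For Gadd45a, the average serum response of 0.88 was 0.47 with a constant of 64 and 0.72 to 1.05 with 1 array left out, its call lost with 64 and without 3 of the 8 arrays; the difference between its responses was 4.41 with a constant of 1, 2.99 with 64, and 3.53 to 4.20 with 1 array left out. For Gadd45g that difference was 2.83 to 3.58. For Gadd45b on 1450971_at, the average genotype difference of -0.20 was -0.28 with quantile normalization and -0.28 to -0.12 with 1 array left out, and the difference between responses was 0.070 to 0.39. On 1420197_at the average genotype difference of 0.39 was 0.47 with quantile normalization, 0.50 with median centring, 0.39 with no trend (now called) and 0.29 to 0.50 with 1 array left out; this probe set left the test under the 60th percentile filter. Represented by 1420197_at, Gadd45b gave an average serum response of -0.24 in place of 0.80. The average genotype difference of -0.02 on 1449773_s_at, not called, changed sign, at -0.085 to 0.083 over the 16 alternatives. The average serum calls of 1450971_at, 1449773_s_at and Gadd45g kept their direction and side of the threshold under every alternative run. So did the average genotype call of Gadd45g. The average genotype difference of Gadd45a, which had to differ, was -4.61 to -3.67 over the 16 alternatives.

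With the set number as a replicate block, Gadd45b on 1450971_at gave an average genotype difference of -0.20 at an adjusted p of 0.0359, now called, and 399 probe sets differed between serum responses; no other call on the members changed. The arrays share a number and are not shown to be paired. Leaving out 1 array leaves a group with 1, which is then assumed to vary like the others.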
